A study of Sus scrofa with 6 samples.

Results

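The genes described here were 10 genes of chylomicron assembly among the 20648 genes counted in single cells of the piglet ileum. They were chosen by name, as the apolipoproteins APOA1, APOA4, APOB, APOC2, APOC3 and APOE together with MTTP, DGAT1, MOGAT2 and SAR1B, and all 10 were found in the count files. Barcodes with at least 1000 unique molecular identifiers (UMIs, 1 per captured transcript) and 500 genes were taken as cells, and cells with at least 5 UMIs of EPCAM, KRT8 and VIL1 together and at most 1 UMI of PTPRC, the leukocyte phosphatase CD45, as epithelial. The epithelial cells were divided by OLFM4, a gene of crypt base cells, into OLFM4-low cells with 0 or 1 UMI and OLFM4-high cells with at least 5. Barcodes with 1 to 100 UMIs gave the background of RNA outside cells.

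The libraries came from the ileum of male piglets, large white in the study's methods, on day 0, 1, 3, 7, 14 and 21 after birth, with 1 library per age. All animals were born to 3 sows, stayed with them on maternal milk, and carried no genetic change or treatment. In the methods 5 piglets were taken per age and each group filled 1 chip channel, so that animals within a library could not be separated, and how their cells were pooled was not spelled out. The labels name the ileum, whereas the design text of the series names the cecum. Since each age was 1 library, an age and its library cannot be told apart, no test between ages was possible, and every interval below is a 95% interval that covers counting error only.

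The 6 libraries held 77391932 to 100348769 UMIs and 10836 to 15956 cells each. Epithelial cells numbered 2741 at day 0, 1002 at day 1, 90 at day 3, 192 at day 7, 28 at day 14 and 1 at day 21, which was 25.3% of the cells at day 0 and 0.00724% at day 21. Of these, 2409, 884, 62, 186, 28 and 1 were OLFM4-low and 259, 108, 23, 4, 0 and 0 were OLFM4-high, with 73, 10, 5, 2, 0 and 0 cells between the classes. Gated cells lay close to the limit of the gate on some days, since 113 cells on day 0 and 21 cells on day 7 had exactly 5 gate UMIs, and 126 and 51 further cells had 4. Of 75427 distinct cell barcodes 672 occurred in more than 1 library, but only 2 of the 4052 epithelial barcodes did. The single epithelial cell of day 21 had 10364 UMIs and none of any of the 10 genes, so that day is left out of the levels below.

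Enterocytes repackage absorbed fat into chylomicrons, large lipoprotein particles that leave the cell at its base and reach the lymph. Monoacylglycerol and fatty acids are rejoined to triglyceride by acyltransferases in the endoplasmic reticulum, the triglyceride is loaded onto apolipoprotein B by the microsomal triglyceride transfer protein, and the particle is carried to the Golgi in a large COPII vesicle. Smaller apolipoproteins are added on the way or exchanged in the circulation, where they govern lipase activity and uptake. In suckling mammals milk fat is the main fuel, and the newborn small intestine is known as a strong source of apolipoproteins.

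In the Sscrofa11.1 assembly 3 of the apolipoprotein genes lay within 16.8 kb of chromosome 9, with APOA4 at 44201587 to 44204072, APOC3 at 44211171 to 44213538 and APOA1 at 44216481 to 44218360. APOE, at 51373113 to 51375333 of chromosome 6, and APOC2, at 51404219 to 51406302, lay within 33.2 kb of each other. The remaining genes were spread over the genome, with APOB on chromosome 3 from 117250096 to 117316200, MTTP on chromosome 8 from 120820660 to 120871468, DGAT1 on chromosome 4 from 452890 to 463665, MOGAT2 on chromosome 9 from 9937654 to 9951679 and SAR1B on chromosome 2 from 136848843 to 136874248.

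Together the 10 genes made up 1.02% of the UMIs of OLFM4-low cells at day 0, 1.99% at day 1, 0.0754% at day 3, 0.736% at day 7 and 0.965% at day 14. The day 3 value stood apart from the others, and the cells behind it were of another kind. Sorted by lineage genes, the OLFM4-low cells of days 0, 1, 3, 7 and 14 included 1093, 599, 2, 84 and 25 absorptive cells, gated by ANPEP, FABP2, MEP1A and RBP2. Enteroendocrine cells, gated by CHGA, CHGB, PCSK1N and SCG5, numbered 515, 97, 30, 7 and 0. Goblet cells, gated by MUC2, FCGBP and CLCA1, numbered 457, 92, 15, 0 and 0. The remaining 344, 96, 15, 95 and 3 cells passed none of these gates. On day 7 these unsorted cells had a median of 2843 UMIs and 15.1% mitochondrial UMIs, against 8859.5 and 7.80% in absorptive cells. These lineage gates were set after the data had been seen, because the goblet gate first written also held SPINK4, which most absorptive cells carried. The summed level of the absorptive markers in OLFM4-low cells was 35.0 UMIs per 10000 at day 0, 70.7 at day 1, 1.07 at day 3, 50.3 at day 7 and 92.4 at day 14. FABP2 and RBP2 had no UMI in the 62 cells of day 3, the brush border sucrase SI stayed at or below 4.25 per 10000 throughout, and the goblet mucin MUC2 had no UMI on days 7 and 14. Fewer absorptive cells and less RNA per cell cannot be told apart in the OLFM4-low sums, so the absorptive cells are given beside them for days 0, 1, 7 and 14.

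A level is the number of UMIs of a gene among 10000 UMIs of its cell class. Each transcript is counted once at its 3′ end, so no length enters the scale and levels of different genes can be set side by side apart from differences in capture.

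APOB, the structural protein of the chylomicron, stood in OLFM4-low cells at 4.95 (4.87 to 5.03) at day 0, 15.9 (15.7 to 16.1) at day 1, 0.119 (0.0438 to 0.260) at day 3, 5.46 (5.04 to 5.89) at day 7 and 13.4 (11.8 to 15.2) at day 14. In absorptive cells it was 6.61 at day 0, 18.7 at day 1, 7.71 at day 7 and 13.4 at day 14. Days 1 and 14 were thus the high ages in both sets of cells, and no interval of one age overlapped that of another within the absorptive cells. MTTP, which loads lipid onto APOB, stood at 1.46 at day 0, 3.58 at day 1, 1.89 at day 7 and 4.87 (3.90 to 6.01) at day 14, with 0 UMIs in the 502694 UMIs of day 3. In absorptive cells the MTTP levels were 1.98, 4.20, 2.83 and 5.02, so that MTTP followed the same order of ages as APOB apart from the top, where its intervals for days 1 and 14 overlapped in absorptive cells.

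**Figure D1:**
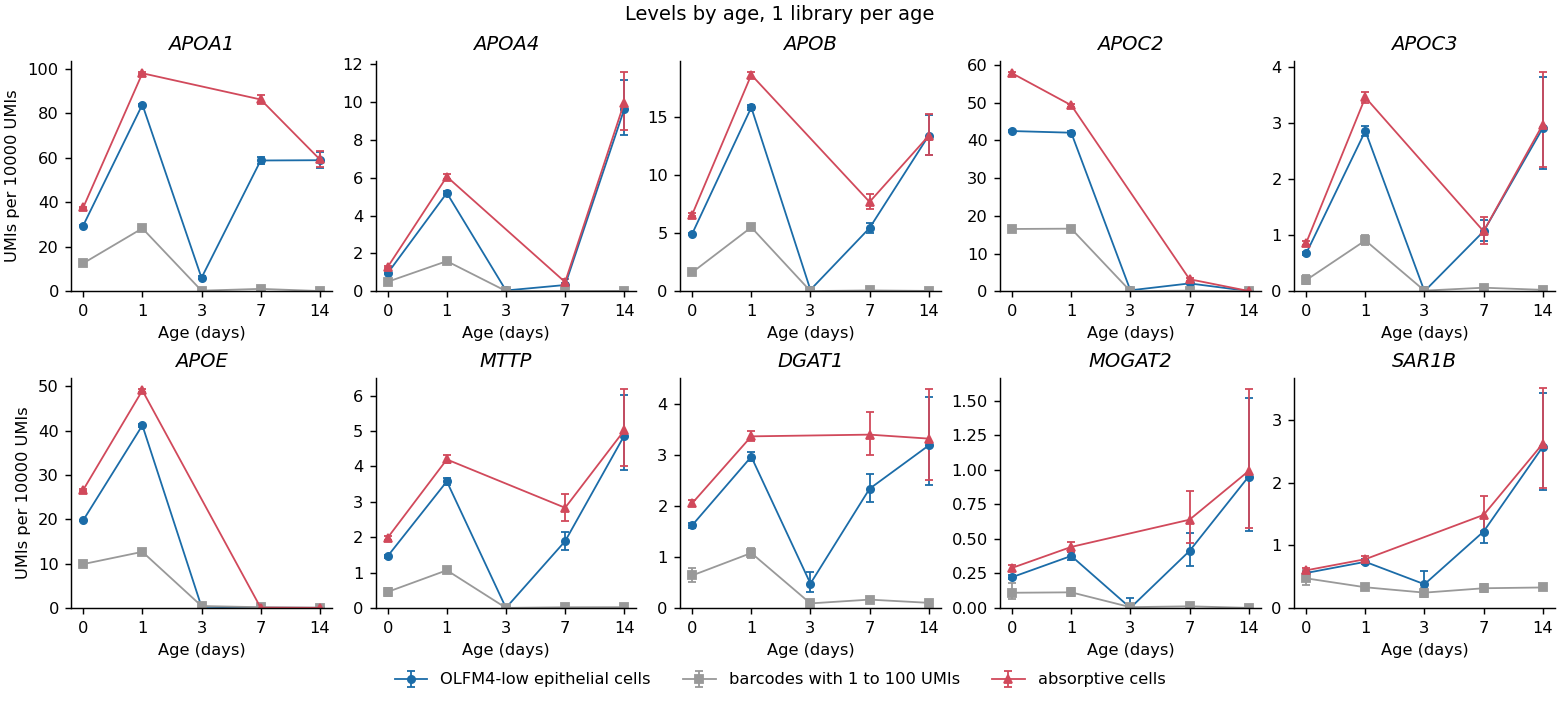
Levels of the 10 genes in UMIs per 10000 UMIs against age in days, for OLFM4-low epithelial cells (circles), absorptive cells (triangles, no point on day 3) and barcodes with 1 to 100 UMIs (squares), with exact 95% Poisson intervals and 1 library per age. Ages are evenly spaced and each panel has its own linear axis from 0. APOC2 and APOE are high on days 0 and 1 only, while APOA4, MTTP, MOGAT2 and SAR1B have their top point on day 14.

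APOA1, the main protein of high density lipoprotein and a coat protein of chylomicrons, was the most abundant of the 10 genes on days 1 to 14. Its level in OLFM4-low cells was 29.5 (29.4 to 29.7) at day 0, 83.9 (83.5 to 84.4) at day 1, 6.03 (5.37 to 6.75) at day 3, 58.8 (57.4 to 60.2) at day 7 and 58.9 (55.4 to 62.6) at day 14. Days 7 and 14 did not differ beyond their intervals in these cells, whereas in absorptive cells APOA1 stood at 37.6 at day 0, 98.0 at day 1, 86.2 (84.1 to 88.3) at day 7 and 59.3 (55.7 to 63.0) at day 14. APOA4, secreted with chylomicrons after fat intake, stood at 0.954 at day 0, 5.20 at day 1, 0.328 (0.234 to 0.449) at day 7 and 9.63 (8.25 to 11.2) at day 14 in OLFM4-low cells. Only 2 UMIs of APOA4 were counted on day 3. Of the 5 ages APOA4 was thus highest at day 14 and, among ages with absorptive cells, lowest at day 7, where these cells had 0.483 against 9.98 at day 14. One cell of day 14 held 48 of the 172 APOA4 UMIs, and without it the OLFM4-low level was 7.21, still above that of day 1. APOC3, an inhibitor of lipoprotein lipase, stood at 0.674 at day 0, 2.86 at day 1, 1.07 at day 7 and 2.91 (2.18 to 3.82) at day 14, with no UMI at day 3. Its levels on days 1 and 14 could not be separated at this depth.

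APOC2, the activator of lipoprotein lipase, ran the other way. It stood in OLFM4-low cells at 42.5 (42.3 to 42.7) at day 0, 42.1 (41.7 to 42.4) at day 1, 0.239 (0.123 to 0.417) at day 3, 2.07 (1.82 to 2.35) at day 7 and 0.0560 (0.00142 to 0.312) at day 14, the last from 1 UMI. Days 0 and 1 were nearly alike and the later ages lay far below them. Even the day 7 level rested on few cells, since the 246 UMIs came from 9 of 186 cells and 1 cell held 172 of them, without which the level was 0.628 (0.494 to 0.789). In absorptive cells APOC2 stood at 57.8 at day 0, 49.4 at day 1, 3.18 at day 7 and 0.0583 at day 14. APOE, a ligand of lipoprotein receptors that many tissues and macrophages make, stood in OLFM4-low cells at 19.8 at day 0, 41.2 at day 1, 0.259 (0.138 to 0.442) at day 3, 0.0337 (0.00918 to 0.0862) at day 7 and 0 at day 14, where no UMI in 28 cells allowed a level of up to 0.207. In absorptive cells it was 26.6, 49.1, 0.0391 and 0 on days 0, 1, 7 and 14. APOC2 and APOE, neighbours on chromosome 6, were thus abundant on days 0 and 1 and close to absent on day 14, while APOA1, APOB and MTTP were at or above their day 0 levels on that day.

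DGAT1, which makes triglyceride from diacylglycerol, stood in OLFM4-low cells at 1.62 at day 0, 2.97 at day 1, 0.477 (0.306 to 0.710) at day 3, 2.34 at day 7 and 3.19 (2.42 to 4.13) at day 14. In absorptive cells DGAT1 was 2.06 on day 0 and 3.37, 3.40 and 3.33 on days 1, 7 and 14, the last 3 not separable. MOGAT2, which makes diacylglycerol from monoacylglycerol, stood at 0.223 at day 0, 0.376 at day 1, 0.413 (0.305 to 0.545) at day 7 and 0.952 (0.554 to 1.52) at day 14, the last from 17 UMIs, with none at day 3. SAR1B, the GTPase that starts the COPII coat, stood at 0.558 at day 0, 0.736 at day 1, 0.378 (0.228 to 0.590) at day 3, 1.22 (1.03 to 1.44) at day 7 and 2.58 (1.89 to 3.44) at day 14. In absorptive cells SAR1B was 0.601, 0.779, 1.49 and 2.63 on days 0, 1, 7 and 14, so each of these ages was above the one before it, with intervals that did not overlap.

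Between ages, a gene was called where the levels differed at least 2-fold and their intervals did not overlap. From day 0 to day 1, 6 of the 10 genes were called higher and 0 lower in OLFM4-low cells, where 5.92% of all 13453 genes were called higher and 5.28% lower. The ratios of day 1 to day 0 were 5.45 for APOA4, 4.24 for APOC3, 3.21 for APOB, 2.84 for APOA1, 2.45 for MTTP and 2.08 for APOE, against 1.83 for DGAT1, 1.69 for MOGAT2, 1.32 for SAR1B and 0.990 for APOC2. In absorptive cells 5 genes were called higher, where 8.43% of all genes were, and APOE at a ratio of 1.84 was not among them. Of 52 further lipid genes that entered, 10 were called higher and 0 lower in OLFM4-low cells.

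On day 3 against day 1, 9 of the 10 genes were called lower in OLFM4-low cells and none higher, where 11.3% of all genes were called lower and 16.2% higher. The level of APOA1 was 13.9-fold lower, that of DGAT1 6.22-fold, that of APOB 133-fold, that of APOE 159-fold and that of APOC2 176-fold. MTTP was at least 59.9-fold lower, APOC3 at least 47.9-fold and MOGAT2 at least 6.31-fold, each against a floor of 3 UMIs. SAR1B, at a ratio of 0.513, missed the fold, though it passed it in 3 of the alternative cell selections. With 2 absorptive cells on day 3 against 599 on day 1, the comparison set different kinds of cell side by side, and the part of this in the result was not tested. From day 3 to day 7 the 9 genes that entered were all called higher, where 14.5% of all genes were called higher and 8.48% lower, and the absorptive cells had gone from 2 to 84. APOE had 17 UMIs over both ages and did not enter.

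Day 7 could be set against day 1 within absorptive cells. There 5 of the 10 genes were called lower and 0 higher, where 5.54% of all 11110 genes were called lower and 6.26% higher. APOA4 was 12.6-fold lower, APOC2 15.5-fold, APOC3 3.24-fold and APOB 2.42-fold, and APOE, with 3 UMIs on day 7, was 1255-fold lower. The day 7 level of APOC2 rested on the cell with 172 of its UMIs, without which it was 0.952 (0.745 to 1.20) in absorptive cells, beside 49.4 on day 1. The ratios of APOA1, DGAT1, MOGAT2 and SAR1B were 0.880, 1.01, 1.45 and 1.91, so these were not called. MTTP was lower on day 7, at the levels given above, but also missed the fold.

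Day 14 had 28 OLFM4-low cells, of which 25 were absorptive. Against day 7, 6 of the 9 genes that entered were called higher, where 4.97% of all genes were called higher, and 1 lower, where 9.88% were. APOA4 was 29.3-fold higher, APOC3 2.72-fold, MTTP 2.58-fold, APOB 2.46-fold, MOGAT2 2.31-fold and SAR1B 2.11-fold, while APOC2 with its 1 UMI was lower at a ratio of 0.0270. Without the cell that held most of them the day 7 level of APOC2 was 0.628, beside 0.0560 (0.00142 to 0.312) on day 14. Within absorptive cells 2 genes were called higher against day 7, APOA4 at 20.7-fold and APOC3 at 2.78-fold, where 5.16% of all genes were, and 1 lower, where 8.62% were.

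Against day 0, the OLFM4-low cells of day 14 had 6 of the 10 genes called higher, where 8.55% of all genes were called higher, and 2 lower, where 7.46% were. The ratio of day 14 to day 0 was 10.1 for APOA4, 4.62 for SAR1B, 4.32 for APOC3, 4.28 for MOGAT2, 3.33 for MTTP and 2.72 for APOB. APOE was at least 118-fold lower, and APOC2 had 1 UMI against 129682. APOA1 and DGAT1, at ratios of 1.99 and 1.97, narrowly missed the fold. Absorptive cells gave 6 genes higher and 2 lower as well, where 9.42% and 7.28% of all genes were called, with APOE at least 152-fold lower. Of the 52 further lipid genes 25 were called higher and 0 lower, and over all genes the median log2 ratio was -0.82. The cells of day 14 were shallower, with a median of 6016 UMIs against 8606 on day 0, and the part of depth and cell number in this comparison was not tested.

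The makeup of the apolipoprotein messages changed with age. In absorptive cells APOC2 held 44.2% of the UMIs of the 6 apolipoproteins at day 0, 22.0% at day 1, 3.22% at day 7 and 0.0681% at day 14. APOE held 20.4%, 21.9%, 0.0397% and 0% at these ages. APOA1 held 28.8%, 43.6%, 87.4% and 69.2%, and so was the largest single share from day 1 on. APOB held 5.05%, 8.31%, 7.81% and 15.7%, and APOA4 held 0.978%, 2.70%, 0.489% and 11.6%. The barcodes with 1 to 100 UMIs were close to this makeup on days 0 and 1, with 40.0% APOC2, 30.4% APOA1 and 23.9% APOE on day 0 and 25.3%, 43.1% and 19.3% on day 1. They differed from it on day 7, with 10.8% APOC2, 70.0% APOA1 and 10.0% APOE of 530 UMIs, and on day 14, with 0%, 37.4% and 31.8% of 107 UMIs.

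**Figure D2:**
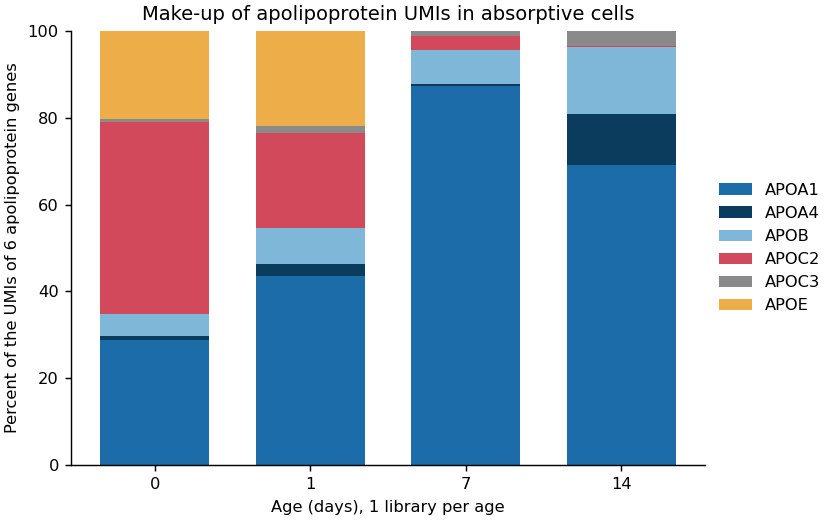
Share of each of 6 apolipoprotein genes in their summed UMIs, in percent, as stacked bars for the absorptive cells of each age in days, with 1 library per age and no bar for day 3. APOC2 holds 44.2% of the apolipoprotein UMIs of absorptive cells on day 0 and 0.0681% on day 14, where APOA1 holds 69.2%.

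The genes differed in how widely they were spread over cells. On day 14 every one of the 28 OLFM4-low cells had APOA1 and APOB UMIs, 21 had APOA4 and 0% had APOE. On day 0 the shares were 73.6% for APOA1, 50.6% for APOB, 27.6% for APOA4, 62.9% for APOC2 and 42.5% for APOE, at a median depth of 8606 UMIs. B lineage cells of day 0, which should lack these genes, had APOA1 UMIs in 12.7% of cells, APOC2 in 18.6%, APOE in 8.88% and APOB in 4.57% at a median depth of 3260 UMIs. After each cell had been thinned to 1000 UMIs, APOA1 was seen in 48.7% of OLFM4-low cells at day 0, 78.2% at day 1, 32.3% at day 3, 42.5% at day 7 and 85.7% at day 14, against 4.66% of B lineage cells at day 0 and 9.14% at day 1. The 10% of OLFM4-low cells with the highest APOC3 levels held 85.7% of the APOC3 UMIs on day 0 and 83.5% on day 1. Those with the highest APOE levels held 81.4% and 44.7% of the APOE UMIs. For SAR1B the same share was lower, at 28.9% and 22.4%. Among the 599 absorptive cells of day 1, thinned to 1000 UMIs each, the Pearson correlation across cells was 0.52 between APOA1 and APOB, 0.43 between APOA1 and APOA4 and 0.39 between APOA1 and APOC3. With APOA1 the values of APOE, APOC2, MTTP, DGAT1, SAR1B and MOGAT2 were 0.37, 0.25, 0.15, 0.11, 0.08 and 0.05. Among 1093 absorptive cells of day 0 the order was another, with APOA1 at 0.43 with APOB, 0.42 with APOE, 0.34 with APOA4, 0.33 with APOC2 and 0.27 with APOC3. The cells of each day share 1 library and their counts are sparse, so the values are a description.

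RNA outside cells held much apolipoprotein message on the days with many epithelial cells. The 10 genes made up 0.430% of the UMIs of barcodes with 1 to 100 UMIs on day 0 and 0.681% on day 1, and 0.0106%, 0.0202%, 0.00663% and 0.00484% on days 3, 7, 14 and 21. APOA1 stood there at 12.6 per 10000 on day 0 and 28.3 on day 1, and APOC2 at 16.5 and 16.6. The OLFM4-low level lay above this background, with intervals apart, for 9 of the 10 genes at day 0, 10 at day 1, 4 at day 3, 9 at day 7 and 8 at day 14. Against barcodes with 10 to 100 UMIs the count was 7 on day 0, where APOC3 and MOGAT2 were lost, and 2 on day 3, where APOB and APOC2 were lost and APOA1 and DGAT1 remained. The 4 genes of day 3 were read against a low background, where APOA1 stood at 0.249 outside cells and 6.03 inside. APOE stood at 0.420 outside cells on day 3 and 0.259 in OLFM4-low cells, at a ratio of 0.615 (0.314 to 1.11), so these levels were not separated. In B lineage cells of day 3 the ratio was 0.0688 (0.0519 to 0.0916). The part of RNA from outside cells in the OLFM4-low level was not tested.

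OLFM4-low and OLFM4-high cells were compared over the libraries of days 0, 1 and 3, which held at least 20 cells of each class, with edgeR's quasi-likelihood test on summed UMIs and the library as a block. The libraries that serve as replicates here are of different ages. APOA1 stood at 29.5, 83.9 and 6.03 in OLFM4-low cells of days 0, 1 and 3 and at 0.583, 0.512 and 0.113 in OLFM4-high cells of the same libraries. APOB stood at 4.95, 15.9 and 0.119 against 0.293, 0.240 and 0.151, so its day 3 values were not separated. For APOE the values were 19.8, 41.2 and 0.259 against 0.350, 0.223 and 0. For each of these genes the OLFM4-low cells of days 0 and 1 were above all OLFM4-high values, and on day 3 APOA1 was too, while APOB was not. MOGAT2 stood at 0.223, 0.376 and 0 against 0.173, 0.0989 and 0.113, and SAR1B at 0.558, 0.736 and 0.378 against 0.359, 0.435 and 0.339, so that SAR1B was higher in OLFM4-low cells of each library and MOGAT2 in those of days 0 and 1. Within libraries the ratio of SAR1B was 1.56 (1.38 to 1.76), 1.69 (1.43 to 2.01) and 1.11 (0.480 to 2.80), the last not separated from 1. On days 0 and 1 the OLFM4-high APOA1 level was 0.0464 and 0.0181 times that outside cells, beside 0.0346 and 0.0289 times in B lineage cells. For APOE these ratios were 0.0354 and 0.0176 beside 0.0292 and 0.0358, and for APOB 0.181 and 0.0435 beside 0.0862 and 0.0391. The part of RNA from outside cells in the OLFM4-high levels was not tested.

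**Figure D3:**
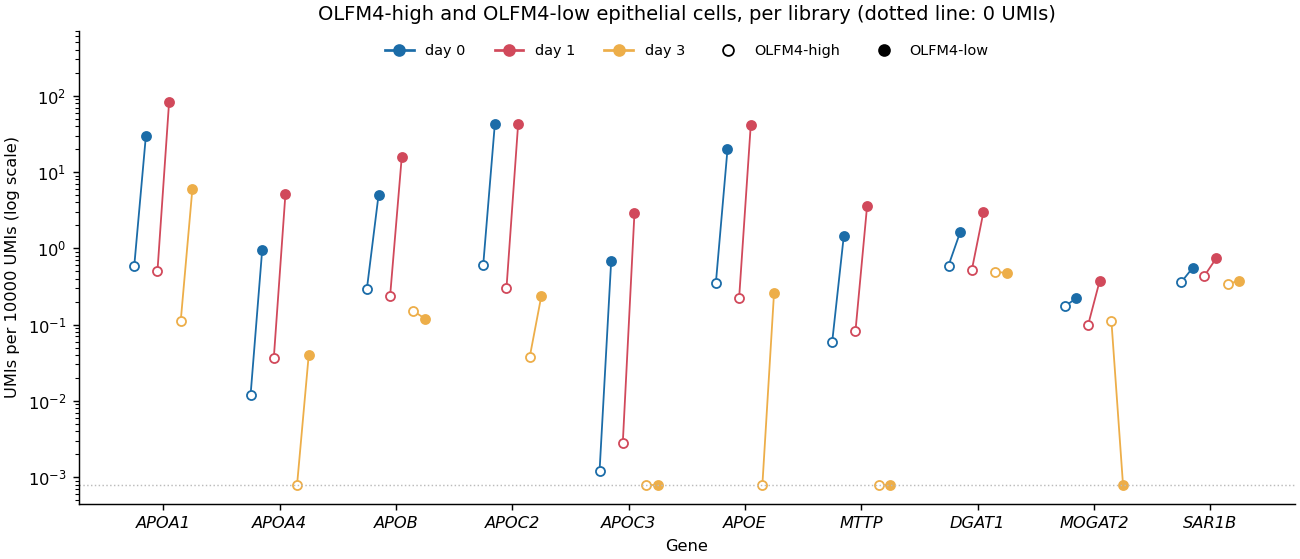
Levels of the 10 genes, in UMIs per 10000 UMIs on a log axis, in OLFM4-low (filled points) and OLFM4-high (open points) epithelial cells, joined within the libraries of days 0, 1 and 3. Levels of 0 UMIs are drawn at the dotted line. APOA1, APOA4, APOC2, APOC3, APOE and MTTP lie far apart between the classes on days 0 and 1. MOGAT2, at ratios of 1.28 (1.07 to 1.55) and 3.80 (2.70 to 5.51) on these days, and SAR1B lie closer together than those.

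Of the 9 genes that passed the filter on low counts, 7 were higher in OLFM4-low cells and 0 lower, where 20.5% of all 11633 genes were called in either direction, 11.7% higher and 8.79% lower. By edgeR's quasi-likelihood test the log2 difference was 6.80 ± 0.42 (SE, adjusted p = 0.000148) for APOA4, 6.72 ± 0.53 (adjusted p = 0.000148) for APOE, 6.53 ± 0.59 (adjusted p = 0.000214) for APOC2 and 6.38 ± 0.49 (adjusted p = 0.000148) for APOA1. For MTTP it was 5.07 ± 0.40 (adjusted p = 0.000209), for APOB 4.52 ± 0.90 (adjusted p = 0.00718) and for DGAT1 1.53 ± 0.46 (adjusted p = 0.0409). MOGAT2, at 0.93 ± 0.51 (adjusted p = 0.232), and SAR1B, at 0.60 ± 0.27 (adjusted p = 0.151), did not pass. APOA4 and APOE met the filter's minimum in 1 and 2 of the 3 libraries in OLFM4-high cells and entered through OLFM4-low cells, the class where they were high, so the filter favoured their calls. With no filter their log2 differences were 6.81 and 6.72 and both were called. MTTP met the minimum in 2 libraries of each class, so its entry also rested on OLFM4-low cells, where it was high. APOC3 was removed by the filter, having 1, 1 and 0 UMIs in OLFM4-high cells against 2056, 4483 and 0. The median log2 difference was 5.07 over the 9 genes and 0.03 over all genes tested. The OLFM4-high cells were the deeper class, with medians of 22244, 25379 and 12743 UMIs against 8606, 15404 and 6504.

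Single libraries decided the weaker calls. Without day 0 the adjusted p was 0.214 for APOB and 0.405 for DGAT1, and without day 1 it was 0.280 for DGAT1, while the log2 difference of MOGAT2 was -0.04. Without day 3 both MOGAT2 (adjusted p = 0.0285) and SAR1B (adjusted p = 0.0396) were called higher. DGAT1 also missed the threshold with DESeq2 (adjusted p = 0.0677) and with an epithelial gate of at least 3 UMIs (adjusted p = 0.0752). Over all alternatives run the adjusted p reached 0.214 for APOB, 0.405 for DGAT1, 0.992 for MOGAT2 and 0.741 for SAR1B. Without the library block APOA1 and APOA4 were called higher, and APOC2, APOE and MTTP missed the threshold at adjusted p = 0.0567, 0.0527 and 0.0728, with APOB at 0.0657. With absorptive cells in place of all OLFM4-low cells, in days 0 and 1, the genes called higher before kept their calls. MOGAT2 and SAR1B were called higher as well, SAR1B by 0.96 ± 0.25 on the log2 scale (adjusted p = 0.0155). The shares of all genes given above belong to the fit with all OLFM4-low cells. More genes were called in the fit with absorptive cells, for which no share is given, so the added calls cannot be set against one. APOC3 entered that fit only through its 1792 and 4394 UMIs in absorptive cells, against 1 and 1 in OLFM4-high cells, so its call was fixed by the filter.

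The further list of lipid genes, 58 names of which 56 were in the files, covered uptake, re-esterification, vesicle coats, receptors and regulators. In the same edgeR test 21 of the 48 that were tested were higher in OLFM4-low cells, 2 lower and 25 not called, with a median log2 difference of 0.85 against 0.03 over all genes. The 6 with the smallest adjusted p were all higher. They were FABP1 at 4.14 (adjusted p = 0.000214) and FABP2 at 5.22 (adjusted p = 0.000980), which bind fatty acids in the cytosol, PRAP1 at 5.37 (adjusted p = 0.000271), CREB3L3 at 4.85 (adjusted p = 0.000275), a transcription factor of lipid metabolism, the bile acid receptor NR1H4 at 3.18 (adjusted p = 0.000914), and ABCG8 at 2.82 (adjusted p = 0.00167), which exports sterols to the lumen. The lower genes included the lipoprotein receptor VLDLR at -2.13 (adjusted p = 0.00480).

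Epithelial cells were next compared with non-epithelial cells, which had at most 1 gate UMI, over the 5 libraries of days 0 to 14. APOA1 stood at 22.6, 67.7, 3.74, 54.6 and 58.9 in epithelial cells of days 0, 1, 3, 7 and 14 and at 1.36, 2.19, 0.199, 0.0506 and 0.00246 in non-epithelial cells. Every epithelial value was above every non-epithelial one. SAR1B stood at 0.510, 0.682, 0.379, 1.17 and 2.58 against 0.402, 0.439, 0.330, 0.406 and 0.352, so it was also counted in non-epithelial cells. Its epithelial level was 1.27 times the other (1.18 to 1.37) at day 0 and 1.55 times (1.45 to 1.66) at day 1, and was not separated from it at day 3, at a ratio of 1.15 (0.778 to 1.64). The ratio was 2.87 (2.42 to 3.39) at day 7 and 7.31 (5.34 to 9.78) at day 14. The non-epithelial SAR1B level was 0.851 (0.666 to 1.10) times that outside cells on day 0 and 1.08 (0.921 to 1.27) times on day 14. On days 1, 3 and 7 it was 1.33, 1.35 and 1.29 times that level, with intervals above 1. APOE stood at 15.1, 33.3, 0.159, 0.0313 and 0 against 1.94, 1.99, 0.345, 0.0517 and 0.0369, higher in the epithelium on days 0 and 1 and not on the later days.

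Of the 10 genes 8 were higher in epithelial cells and 0 lower by edgeR's quasi-likelihood test, where 39.9% of all 13682 genes were called in either direction, 19% higher and 20.9% lower. DGAT1 differed by 3.83 ± 0.41 on the log2 scale (adjusted p = 0.000603), APOC2 by 6.17 ± 0.74 (adjusted p = 0.000969) and APOC3 by 6.14 ± 1.18 (adjusted p = 0.00622). MOGAT2 differed by 6.60 ± 1.27 (adjusted p = 0.00627), APOB by 5.79 ± 1.41 (adjusted p = 0.0159), APOA4 by 6.14 ± 1.52 (adjusted p = 0.0168), MTTP by 6.13 ± 1.66 (adjusted p = 0.0234) and APOA1 by 6.27 ± 1.77 (adjusted p = 0.0272). APOE, at 0.99 ± 1.08 (adjusted p = 0.50), and SAR1B, at 0.85 ± 0.42 (adjusted p = 0.143), did not pass. In non-epithelial cells MOGAT2 and APOA4 met the filter's minimum in 2 of the 5 libraries, APOC3 and MTTP in 3 and APOA1 and APOC2 in 4. Of these 6 genes all but MTTP entered through the epithelial class, where they were high. MTTP met the minimum in 4 epithelial libraries, so its entry rested on both classes. With no filter the 6 were called as well, at adjusted p from 0.000908 to 0.0265. The median log2 difference was 6.13 over the 10 genes and -0.19 over all genes. APOA1 lost its call without day 1 (adjusted p = 0.0546), without day 3 (0.0518) or without day 7 (0.0503), and MTTP without day 1 (0.0574) or day 7 (0.0539). Without the library block APOC2 was not called (adjusted p = 0.0811). Of the lipid list 32 of 53 genes were higher, 2 were lower and 19 were not called, with a median of 2.80. The lower genes were the fatty acid transporter CD36 at -5.45 and the phospholipid transfer protein PLTP at -5.50.

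Outside the epithelium APOE was counted in macrophages and stromal cells, though not on all days above the level outside cells. In macrophages APOE stood at 25.1 at day 0, 9.06 at day 1 and 3.00 at day 3. Stromal cells, gated by collagen and matrix genes, had APOE at 2.74, 6.23 and 9.76 on these days, so that on day 3 the stromal level was above that of OLFM4-low cells. Outside cells APOE stood at 9.89, 12.7 and 0.420, and the ratio to it was 2.54 (2.36 to 2.74), 0.716 (0.680 to 0.753) and 7.13 (5.16 to 9.86) in macrophages and 0.277 (0.244 to 0.313), 0.492 (0.463 to 0.522) and 23.2 (18.5 to 29.5) in stromal cells. Of days 0, 1 and 3, APOE was thus above the level outside cells on days 0 and 3 in macrophages. In stromal cells it was above that level on day 3, and the other values of these days lay below it. On days 7, 14 and 21 the macrophage ratio was 49.3 (31.2 to 77.0), 144 (98.9 to 216) and 1874 (1221 to 2988). These rested on 14, 36 and 4 cells. In stromal cells the ratio was 44.8 (8.80 to 142) on day 14, from 3 UMIs. With 1 UMI on day 21 it was not separated from 1. B lineage cells stood at 0.288, 0.453 and 0.0289 on days 0, 1 and 3.

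APOA1 was found in endothelial cells, gated by PECAM1, CDH5, VWF, CLDN5 and KDR. It stood there at 12.7 (12.1 to 13.4) in 200 cells of day 0, 17.4 (16.8 to 18.1) in 203 cells of day 1 and 27.1 (24.7 to 29.6) in 26 cells of day 3, with a UMI in 71.0%, 86.2% and 88.5% of cells at median depths of 5478, 6570 and 6572 UMIs. The other apolipoproteins did not exceed 0.508 per 10000 in the same cells, with APOB at 0.102, 0.110 and 0 and with 1, 1 and 0 UMIs of APOC3. In absorptive cells of days 0 and 1, 13738 and 23722 APOB UMIs stood beside 78224 and 124448 of APOA1, whereas in endothelial cells 12 and 17 stood beside 1503 and 2693. B lineage cells had APOA1 at 0.435, 0.817 and 0.0111 and T cells at 0.337, 0.754 and 0.0106, and the barcodes with 1 to 100 UMIs at 12.6, 28.3 and 0.249. The endothelial level was above those of B lineage and T cells on each of these days. It was not separated from that outside cells on day 0, lay below it on day 1 and lay above it on day 3. B lineage cells held 0.0346 and 0.0289 times the level outside cells on days 0 and 1. The part of RNA from outside cells in the endothelial level was not tested. Among endothelial cells without a UMI of the lymphatic genes PROX1, LYVE1 and FLT4 the APOA1 level was 12.8, 19.9 and 31.6, and among those with at least 2 such UMIs it was 14.2 in 33 cells on day 0 and 4.75 in 35 cells on day 1.

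The stromal gate had APOA1 at 1.84, 1.76 and 3.81 on days 0, 1 and 3, with a UMI in 18.2% and 29.8% of its cells on days 0 and 1, so the level lay below that of endothelial cells on each day. The lymphatic split was chosen after the data had been seen, and no test was made for it.

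**Figure D4:**
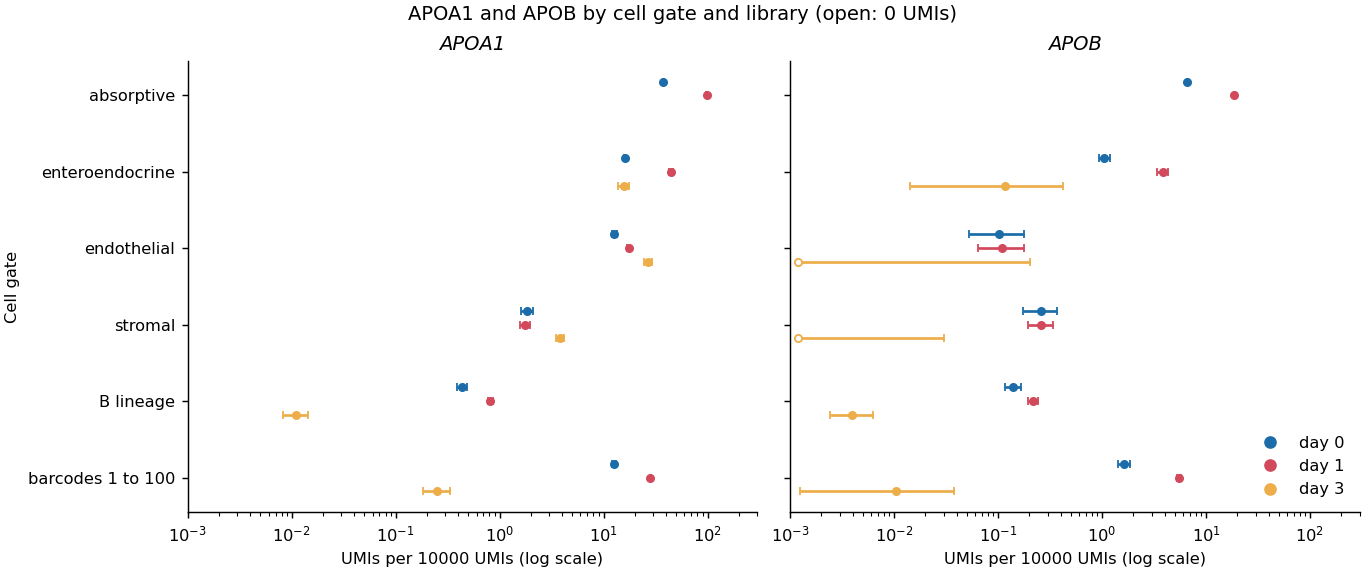
APOA1 and APOB levels, in UMIs per 10000 UMIs on a log axis, by cell gate on days 0, 1 and 3, for gates with at least 20 cells. Bars are exact 95% Poisson intervals and values of 0 UMIs are open markers at the left edge. Endothelial cells hold APOA1 at 12.7 to 27.1 with far lower APOB, whereas absorptive cells hold both.

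Enteroendocrine and absorptive cells were compared within the libraries of days 0 and 1, the only ones with 20 cells of each. By the gates first written, with SPINK4 in the goblet sum, edgeR's quasi-likelihood test gave 7 of the 10 genes lower in enteroendocrine cells and 0 higher, where 36.5% of all 10057 genes were called in either direction, 17.3% lower and 19.2% higher. The log2 differences were -4.19 ± 0.53 for APOC2, -3.97 ± 0.38 for MTTP, -3.57 ± 0.39 for APOB, -3.37 ± 0.39 for APOA4, -3.35 ± 0.50 for MOGAT2, -2.90 ± 0.38 for APOE and -2.81 ± 0.34 for DGAT1, each with an adjusted p of 3.26e-10 or smaller. With 2 libraries of different ages the spread of a single gene was barely estimated. These adjusted p values therefore lean on the spread pooled over all genes. APOA4 and MOGAT2 met the filter's minimum in 1 and 0 of the 2 libraries in enteroendocrine cells and entered through absorptive cells, where they were high, and both were called with no filter as well. APOC3 at 0.58 ± 0.35 (adjusted p = 0.187), APOA1 at 0.06 ± 0.53 (adjusted p = 0.947) and SAR1B at -0.12 ± 0.31 (adjusted p = 0.791) did not pass. For APOA1 the 2 libraries went opposite ways. Its absorptive level was 0.511 (0.483 to 0.541) times the enteroendocrine one on day 0 and 1.24 (1.16 to 1.34) times on day 1. The APOC3 ratio was 0.261 (0.159 to 0.416) on day 0 and 1.27 (0.749 to 2.22) on day 1. The absorptive gate first written kept 263 and 96 cells, in which APOA1 stood at 6.36 and 28.5, against 37.6 and 98.0 in the 1093 and 599 absorptive cells gated without SPINK4. With that gate APOA1, APOC3 and SAR1B were called lower in enteroendocrine cells as well by edgeR's quasi-likelihood test. APOA1 had a log2 difference of -1.52 ± 0.49 (adjusted p = 0.00921), APOC3 -2.18 ± 0.24 (adjusted p = 2.79e-11) and SAR1B -0.59 ± 0.22 (adjusted p = 0.0230). Within libraries, by the same gate, the absorptive SAR1B level was 1.21 (1.01 to 1.45) times the enteroendocrine one on day 0. On day 1 it was 1.15 (0.856 to 1.57) times, not separated from 1. These ratios were 2.35 and 2.20 for APOA1 and 2.53 and 5.32 for APOC3. The shares of all genes given above belong to the gates first written. None is given for the fit without SPINK4, so the calls added there cannot be set against one. The calls for these 3 genes thus depended on the gate. Over all alternatives the adjusted p ran from 0.00921 to 0.989 for APOA1, from 2.79e-11 to 0.945 for APOC3 and from 0.0230 to 0.960 for SAR1B. Of the lipid list 24 of 40 genes were lower in enteroendocrine cells by the gates first written, 0 were higher and 16 were not called, with a median of -1.39 against 0.01 over all genes.

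In enteroendocrine cells, gated without SPINK4, APOA1 stood at 16.0 at day 0, 44.6 at day 1 and 15.7 at day 3, with a UMI in 79.4%, 90.7% and 90.0% of 515, 97 and 30 cells, while APOB stood at 1.05, 3.86 and 0.118, the first 2 of these below its levels of 1.62 and 5.52 outside cells. By the gate first written, with SPINK4, APOA1 stood at 12.4 at day 0 and 22.9 at day 1, beside 12.6 and 28.3 outside cells, and APOB at 0.304 and 0.731, so the levels on these days depend on the gate and lay at or below those outside cells by one of them. Absorptive markers moved with them. In the cells gated without SPINK4, RBP2 stood at 4.08 and 17.0 and FABP2 at 1.20 and 3.29 on days 0 and 1, against 30.7 and 51.7 and 9.79 and 11.6 in absorptive cells, and their part in the APOA1 level was not tested. On day 3 these cells held 267 of the 303 APOA1 UMIs of OLFM4-low cells. By the hormone gene with the most UMIs, APOA1 on day 0 stood at 5.74 in 76 cells led by NTS, 7.56 in 28 led by SST, 16.9 in 136 led by TPH1, the enzyme of serotonin synthesis, and 44.2 in 21 led by PYY. On day 1 it stood at 29.0 in 40 cells led by TPH1, and 6 cells led by SST held 945 of the 3085 enteroendocrine UMIs. In goblet cells APOA1 stood at 7.76 at day 0, 13.2 at day 1 and 0.114 at day 3, which was below the level outside cells on days 0 and 1 and, with 2 UMIs, not separable from it on day 3. On days 0 and 1 it was 0.617 and 0.466 times that level, beside 0.0346 and 0.0289 times in B lineage cells. RBP2 stood at 4.32 and 13.4 in these goblet cells, and the part of absorptive RNA in their APOA1 level was not tested.

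**Figure D5:**
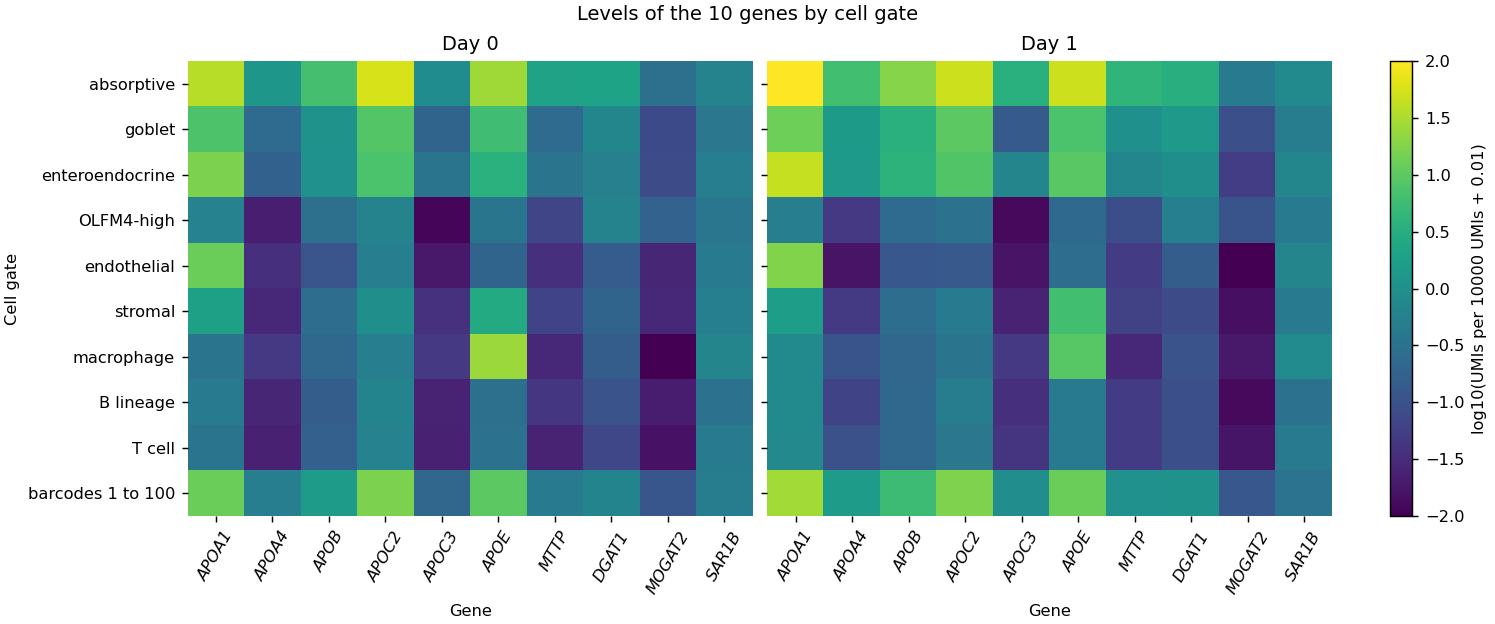
Levels of the 10 genes by cell gate on days 0 and 1, as log10 of UMIs per 10000 UMIs plus 0.01, with darker squares lower. Absorptive cells hold the top level of 9 of the 10 genes on both days, all but SAR1B, and SAR1B varies less over the gates than the apolipoproteins. The APOA1 of endothelial cells, at 12.7 and 17.4, is not separated from the 12.6 outside cells on day 0 and lies below the 28.3 on day 1. That of B lineage cells is 0.0346 and 0.0289 times the level outside cells on these days.

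The genes whose levels followed those of APOB, APOA4 and APOE were sought over 12 groups of a library and an epithelial class with at least 20 cells, among 10146 genes, by the Pearson correlation of log2 levels. These groups used the gates first written, with SPINK4 among the goblet genes, and included a goblet group of day 7, where MUC2 had 0 UMIs in OLFM4-low cells. MTTP was the closest to APOB, at 0.99, followed by CRYBG2 at 0.98, PEPD at 0.98, MELTF at 0.97 and LOC100522401 at 0.97. For APOA4 the closest were ACE at 0.97, CTSC at 0.96, CHKA at 0.96, COL7A1 at 0.96 and LOC100620627 at 0.95, with APOB at 0.89 and APOA1 at 0.77. For APOE they were DDR1 at 0.98, IGF2 at 0.96, PTGS2 at 0.94, CTNND2 at 0.94 and AGPAT3 at 0.94, with APOC2 at 0.81, APOB at 0.57 and SAR1B at -0.08. The 12 groups share libraries and classes, so these values are a description.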

How the data were processed

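Single cells of the piglet ileum were captured after an EDTA-based isolation and sequenced as 3′ libraries, with a kit named version 2 in the study's methods and V3 in the labels. The authors deposited 1 matrix of unfiltered UMI counts per library, made with Cell Ranger 3.1.0 per the submitters' processing notes, which also name STAR. The counts were used as deposited, with no doublet caller and no removal of background RNA, so doublets and free RNA remain in all classes. Library sizes are given with the results, and 0 columns belonged to other series.

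UMIs were summed per library and class with Python 3.11.15, numpy 2.4.6, pandas 2.3.3 and scipy 1.17.1 and are given per 10000 UMIs of the class. Intervals are exact Poisson intervals for sums and Clopper-Pearson intervals for shares. A ratio against 0 UMIs uses a floor of 3 UMIs per class and is written as at least that fold. Ages were compared in genes with at least 20 UMIs over both ages. Classes within libraries, at least 20 cells each, were compared by edgeR 4.0.16 in R 4.3.3 (TMM, filterByExpr, quasi-likelihood test, Benjamini-Hochberg adjustment over all genes tested, threshold 0.05), with the library as a block because each library gives both classes. DESeq2 1.42.0, no block, other gates, filters and depths, thinning to 1000 UMIs and leaving out libraries were alternatives. In simulated counts the test recovered 25 of 100 2-fold and 84 of 100 4-fold changes between OLFM4 classes. Between epithelial and non-epithelial cells it recovered 44 and 95 of 100, and between enteroendocrine and absorptive cells 8 and 77 of 100. Whether the spread of these counts matched that of the measured ones was not tested.

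Named genes are the 10 chosen genes, the 6 lipid genes with the smallest adjusted p in the OLFM4 comparison, and the 5 genes most like APOA4, APOB and APOE. Other lipid genes and the markers named beside results were picked after their values were seen. Members, lists and tests were chosen with earlier results of these data known. The markers ALPI, APOC1 and MOGAT3 were not analysed here, and some results are not reported here. Figures were drawn with matplotlib 3.10.9.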

Additional observations from a re-analysis of the deposited data

Results flagged for a closer look

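APOE stood out among the 10 genes because its level in epithelial cells was above that in non-epithelial cells in some libraries and below it in another. The ratio of the epithelial to the non-epithelial level was 7.79 on day 0 and 16.7 on day 1, but 0.460 (0.245 to 0.789) on day 3. The levels behind these ratios were 15.1 against 1.94 on day 0, 33.3 against 1.99 on day 1 and 0.159 against 0.345 on day 3, the last from 13 epithelial UMIs. The epithelial level of day 3 lay below the 0.420 (0.334 to 0.522) of barcodes outside cells and the non-epithelial one was not separated from it. Of the 62 OLFM4-low cells of day 3, 2 were absorptive, 30 enteroendocrine and 15 goblet, and 15 passed none of these lineage gates. The epithelial cells of day 3 outside the OLFM4-low class were not sorted by lineage. The part of RNA outside cells or of the kinds of cell in the ratio was not tested. The difference between the ages was not tested, since each age was 1 library. On day 7 the ratio was 0.605 (0.164 to 1.56), which did not separate the classes.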

How the results depend on the processing

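Between OLFM4 classes, 2387 genes were called as reported, against 3730 with an epithelial gate of at least 10 UMIs, 3878 with at least 50 cells per class, 4112 with cells under 25% mitochondrial UMIs, 3782 with absorptive cells by the gate without SPINK4, and 418 after thinning to 1000 UMIs, where the filter kept 4 of the 10 genes and all 4 were higher. The minimum of 50 cells kept only days 0 and 1, so it was the same fit as that without day 3. Leaving out 1 library gave 176 (without day 0) to 3878 (without day 3) calls, 1054 without day 1, and 4 to 10 of the 10 genes higher, the 10 with APOC3, which enters only through OLFM4-low cells, with MOGAT2 from -0.037 (without day 1) to 1.16 on the log2 scale. Fitted with no replicate block, that is without pairing the classes of a library, the comparison gave 622 calls, 288 higher and 334 lower, and 2 of the 10 genes higher, APOA1 and APOA4, and APOC2 lost its call between epithelial and non-epithelial cells (adjusted p = 0.0811, the highest of a range from 4.36e-18). Without 1 library the epithelial comparison gave 3503 (without day 1) to 5731 calls, and put APOE at -0.052 (without day 1) to 1.74. Between enteroendocrine and absorptive cells DESeq2 called 1389 genes and thinned cells 790, against 3673, and 1 of the 10 genes, APOC3, was higher without cells holding UMIs of other lineages and with cells under 25% mitochondrial UMIs. APOA1 there was at -0.013 with a gate of at least 3 UMIs, -0.18 without the block, -0.41 after thinning and -1.52 without SPINK4, where APOC3 was at -2.18. With 2 libraries no library could be left out of that comparison. From day 7 to day 14, 2 genes were higher in absorptive cells in place of 6, and 0 lower in place of 1 without cells holding UMIs of other lineages. The causes were not tested. Of the values recomputed for single genes, 702 kept their direction and side of the threshold, 28 passed it only under the alternative, 29 no longer passed it, 10 moved and 7 reversed. Gates without SPINK4 and the lymphatic split were added after seeing the data. The 28 cells of day 14 and the 23 OLFM4-high cells of day 3 limit what could be seen.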

Other observations

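Among the 52 further lipid genes compared between days 0 and 14 in OLFM4-low cells, 4 of the 25 called higher are given here, picked after the values were seen. The ratio of day 14 to day 0 was 12.7 for SLC27A2, a fatty acid transporter, 12.6 for FABP6, the ileal bile acid binding protein, 8.03 for the bile acid receptor NR1H4 and 8.01 for CREB3L3, a transcription factor of lipid metabolism. Day 14 held 28 such cells in 1 library, and no test was possible.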
